A study of Mus musculus with 8 samples.

Results

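Medium spiny neurons are the GABAergic projection neurons that make up most of the striatum, including its ventral part, the nucleus accumbens (NAc). Their identity is set up and then held by a small group of transcription factors. Among these are the forkhead proteins Foxp1 and Foxp2, the retinoid receptors Rarb and Rxrg, the homeodomain proteins Meis1 and Meis2, and the zinc finger protein Bcl11b (also called Ctip2). Sp9, Ebf1 and Ikzf1 act in the divergence of the direct pathway neurons, which carry the dopamine receptor Drd1, from the indirect pathway neurons, which carry Drd2. The 10 genes were chosen by name out of 34797 named targets of the array, with earlier results of these data known. Every probe carrying one of these symbols was read. There were 24 such probes, and 22 of them passed the filter on dim signals, with at least 1 probe for each of the 10 genes.

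The arrays addressed whether gene expression in the adult NAc differs after early adversity. The 4 mice of the maternal separation group (MS, labelled Stress) were male C3H/HeN mice separated daily from the dam between postnatal days 2 and 14, with dams exposed to unpredictable stress meanwhile. The 4 control mice were males of the same strain whose litters were left alone, and all mice were weaned on postnatal day 21. By the methods of the study, all had worked for sweetened milk in operant cages as adults and were fasted before death, and the NAc was punched from frozen slices. In 3 of the 4 mice of each group the mouse numbers began with the same digit (7 in MS mice and 8 in control mice), and what this digit stands for is not given in the sources used here. If it is a litter, litter and group cannot be told apart, and p-values then measure the spread between these mice only.

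Levels are log2 signals relative to the 75th percentile of the same array, so that 0 stands for that percentile itself. The 75th percentile lay between 320 and 395 in MS mice and between 296 and 431 in control mice, and 57.7 to 61.2% of probes in MS mice and 57.3 to 69.7% in control mice were well above background. The highest share and the highest 75th percentile (431) both belonged to control mouse 4. The defining markers of medium spiny neurons were well above background in all 4 mice of each group. Ppp1r1b (DARPP-32, a phosphatase inhibitor of medium spiny neurons) had 7.71 ± 0.08 in MS mice and 7.46 ± 0.34 in control mice (SD, n = 4 each), Drd1 had 2.98 ± 0.26 in MS mice and 2.63 ± 0.23 in control mice, and Drd2 had 0.43 ± 0.19 in MS mice and 0.15 ± 0.33 in control mice. All 20 signalling genes listed for these neurons were above background. The punches differed in cortical markers. Slc17a7, the glutamate transporter of cortical neurons, was -1.42 in MS mouse 3, -2.08 in MS mouse 4 and -1.64 in control mouse 2, while in the other 5 mice it was -5.82 or lower and not well above background. A punch holds many cell types, so that more cells of a type and more RNA per cell cannot be told apart in what follows.

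Most of the 10 genes had somewhat higher signals in MS mice, by less than 1.5-fold, and none passed the threshold of limma after adjustment. This direction held for arrays scaled on their 75th percentile. Scaling on the signalling genes of medium spiny neurons lowers every difference by 0.43 by construction. On that scale 3 of the 22 probes had a positive difference, against 2.06% of all probes. Of the 22 tested probes, 0 had an adjusted p under 0.05, against 0.00302% of all 33111 probes tested. The difference (MS minus control) was positive for 19 of the 22 probes, against 50.6% of all probes. Without adjustment, 9 probes had a p under 0.05 with the higher signal in MS mice, against 6.35% of all probes, and 0 had one with the lower signal, against 7.71%. Those 9 probes belonged to Foxp1 (4 probes), Rarb (2 probes), Foxp2, Rxrg and Meis2 (1 probe each). For 6 of the 22 probes all MS mice lay above all control mice, against 3.76% of all probes. By gene, each represented by its probe of highest mean level, 7 of the 10 differences were positive and 3 were negative. Of these 10 probes 4 had an unadjusted p under 0.05, all with the higher signal in MS mice, and 2 had no overlap. The same shares of all probes apply. The median difference was 0.20 over the 10 genes, against 0.0022 over all probes tested. It was 0.09 when control mouse 4 was left out. These probes are correlated with each other, and several share a gene, so that the counts are not counts of independent results. The genes were also chosen with earlier results of these data known, so the shares of all probes are a description and not a test.

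**Figure D1:**
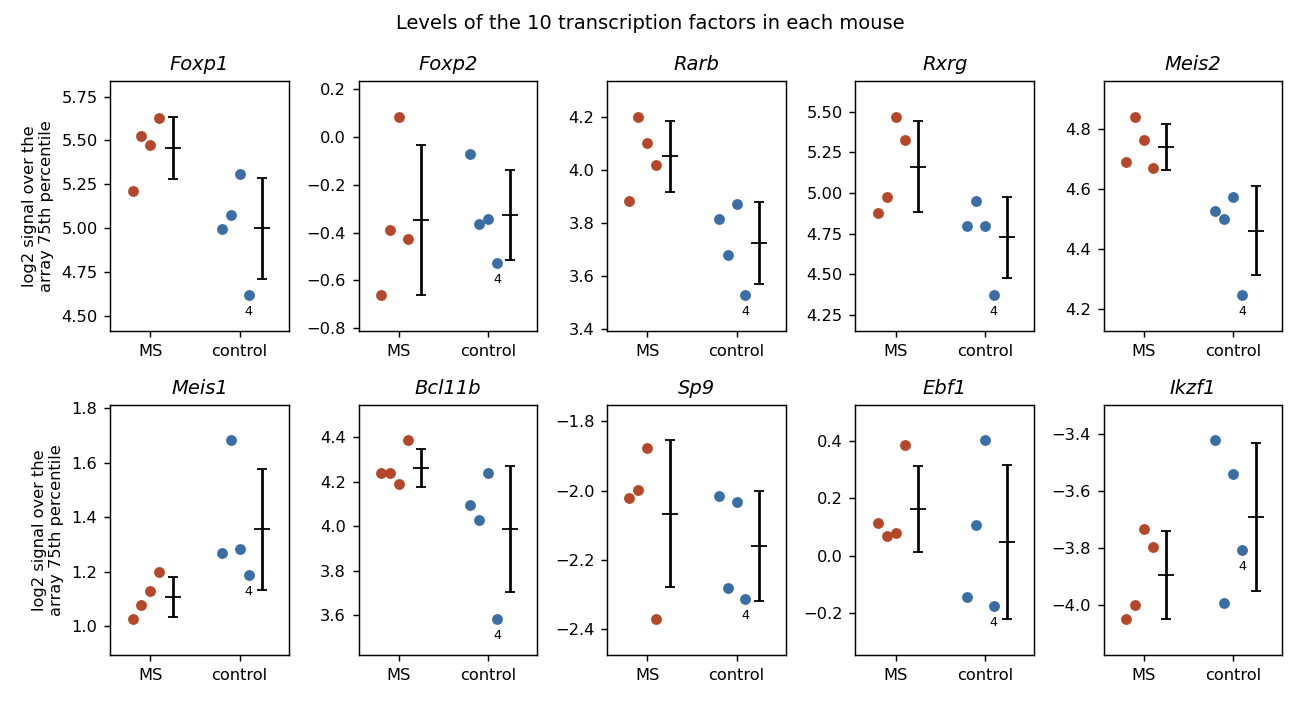
Levels (log2 signal over the 75th percentile of the array) of the probe with the highest mean level for each of the 10 genes. Points are mice 1 to 4 from left to right in each group, MS on the left and control on the right, with control mouse 4 marked, and bars give the mean ± SD (n = 4). Control mouse 4 is the lowest of the 8 mice for 6 genes, and the groups do not overlap for Rarb and Meis2.

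Foxp1, a forkhead repressor made by both types of medium spiny neuron, had the largest differences among the 10 genes, and all of its 4 tested probes pointed the same way. The probe with the highest mean level covers the end of the coding sequence (mm9 chr6:98880084-98880143, minus strand), another spans an intron upstream of it (chr6:98885382-98889719), and one more lies in coding sequence toward the start of the protein (chr6:99112925-99112984). They are shown because the same direction was seen at both ends of the coding sequence, and capitals mark the stop codon.
Foxp1 A_55_P2088825: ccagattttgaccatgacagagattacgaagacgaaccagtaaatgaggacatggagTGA
Foxp1 A_52_P276792: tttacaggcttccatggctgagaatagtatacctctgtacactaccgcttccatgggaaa
Foxp1 A_55_P2105452: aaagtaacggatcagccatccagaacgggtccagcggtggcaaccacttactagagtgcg

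At the coding end, Foxp1 had 5.21, 5.52, 5.47 and 5.62 in MS mice 1 to 4, against 4.997, 5.07, 5.31 and 4.62 in control mice 1 to 4. The groups overlapped only through MS mouse 1, which lay below control mouse 3, and control mouse 4 was the lowest. The difference was 0.46 ± 0.15 (SE, limma adjusted p = 0.24), and 0.33 ± 0.12 without control mouse 4. The probe across the intron gave 0.46 ± 0.16 (adjusted p = 0.25) and the one toward the start gave 0.37 ± 0.10 (adjusted p = 0.17). At the start of the coding sequence all MS mice (-0.34 to -0.19) lay above all control mice (-0.90 to -0.49).

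A further Foxp1 probe, A_55_P2105436 (chr6:98956679-98956738), was designed on the cDNA AK144920. It is shown by its first 30 bases, since whether this stretch is translated was not determined, and it belongs to the study's own list of changed probes, which was drawn from these 8 arrays.
Foxp1 A_55_P2105436: tgtgcctgcattttcttttataatgaaggg

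The signal of this probe was 2.13, 2.20, 2.18 and 2.12 in MS mice 1 to 4, against 1.65, 1.66, 1.78 and 1.24 in control mice 1 to 4. The MS mice lay close together and above every control mouse. The difference was 0.58 ± 0.11 (SE), or 1.49-fold, with a limma adjusted p of 0.11. It was 0.46 ± 0.07 without control mouse 4 (adjusted p = 0.14). Within the slide, on which the arrays lay in 2 rows and 4 columns, the difference was 0.51 and 0.64 in the rows and 0.35 to 0.96 in the columns. It was the only 1 of the 10 genes' probes to pass the threshold under any of the alternatives run, with adjusted p-values of 0.012 after normexp background correction (where 1.48% of all probes passed), 0.023 on the deposited log2 values (1.2% of all probes) and 0.015 with a variance trend and robust moderation. Over all alternatives run the adjusted p ranged from 0.012 to 0.66, the highest with arrays scaled on the signalling genes. Relative to the coding end of Foxp1 in the same mouse, this probe differed between groups by 0.12 (exact permutation test, two-sided p = 0.257, adjusted p = 0.588 over 12 pairs of probes). The fifth probe (A_55_P2105446, chr6:99102053-99102112) was not well above background in any of the 8 mice.

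Foxp2, the forkhead paralog known for its role in vocal learning and enriched in part of the direct pathway neurons, gave smaller values that depended on the probe. The probe with the highest mean level, A_66_P130601 (chr6:15391821-15391880), had -0.66, -0.39, 0.09 and -0.42 in MS mice 1 to 4, against -0.07, -0.36, -0.35 and -0.53 in control mice 1 to 4. MS mice held both the lowest and the highest value, and the difference was -0.02 ± 0.16 (SE, 95% interval -0.39 to 0.35, adjusted p = 0.97). The other 4 probes had positive differences, from 0.15 ± 0.13 to 0.30 ± 0.17, and from 0.05 to 0.17 when MS mouse 3 was left out. One of them spans an intron within the coding sequence (chr6:15363873-15365044, plus strand) and is printed as the coding probe of this gene, with a difference of 0.15 (adjusted p = 0.64).
Foxp2 A_51_P233753: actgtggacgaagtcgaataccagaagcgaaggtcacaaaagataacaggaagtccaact

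For A_55_P2113391 (chr6:15355616-15355675) the groups did not overlap. It had -2.37, -2.55, -2.14 and -2.50 in MS mice 1 to 4, against -2.60, -2.69, -2.60 and -2.68 in control mice 1 to 4, a difference of 0.25 ± 0.10 (adjusted p = 0.30). With normexp background correction the difference was 0.10 and the groups overlapped (adjusted p = 0.67), and on the deposited log2 values it was 0.14. The log2 ratio of A_55_P2113384 (chr6:15204809-15204868) to the probe of highest level was larger in every MS mouse than in every control mouse, by 0.32 on average (exact permutation p = 0.0286, the smallest that 4 against 4 mice can give, adjusted p = 0.171 over 12 pairs). The probes of Foxp2 did not give a single value for the gene. The coding end of Foxp1 relative to Foxp2 A_66_P130601 in the same mouse was higher in MS mice by 0.48. The groups overlapped (exact permutation p = 0.0857, adjusted p = 0.129 over 3 pairs of related genes). This was the only tested Foxp2 probe with a negative difference (-0.02), and ratios to the other Foxp2 probes were not taken.

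**Figure D2:**
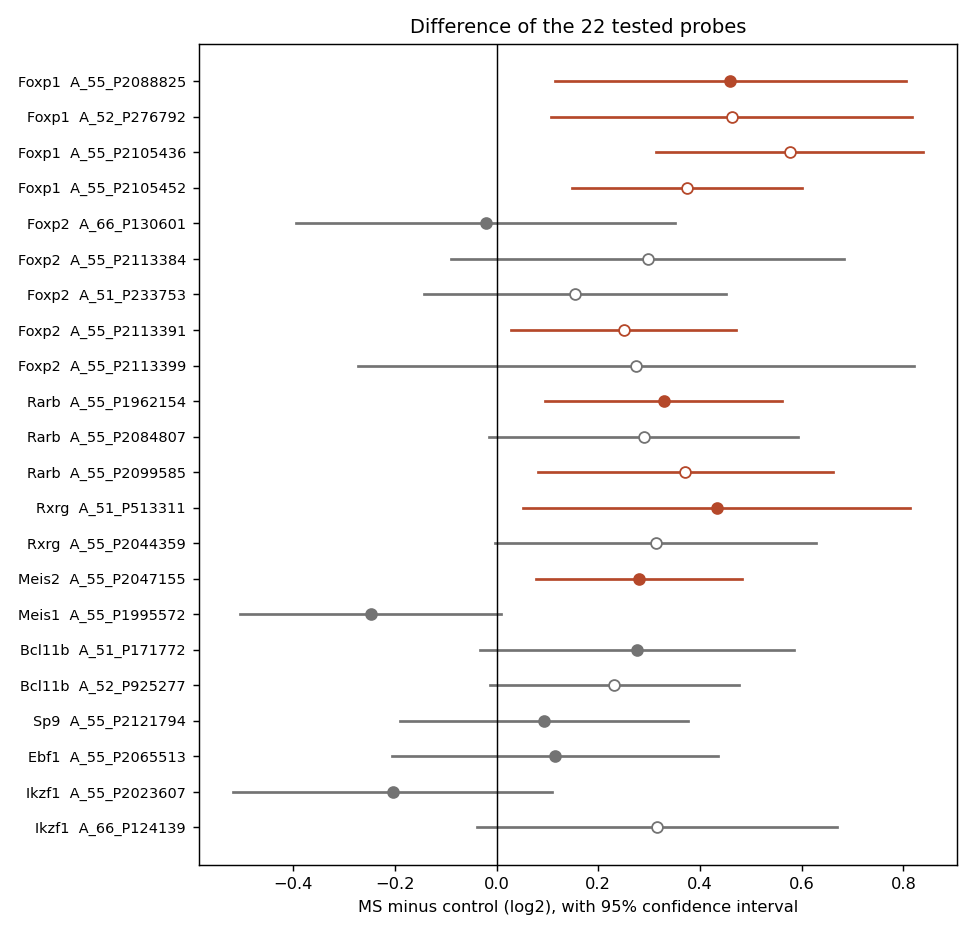
Difference between MS and control mice (log2) for each of the 22 tested probes with arrays scaled on their 75th percentile, and the 95% confidence interval of the limma fit and no adjustment for the number of probes. Filled points are the probe of highest mean level of each gene, and red marks the 9 intervals that do not reach 0. Differences run from -0.25 for Meis1 to 0.58 for a Foxp1 probe.

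The retinoid receptors Rarb and Rxrg are ligand-activated transcription factors that bind DNA as a heterodimer, and both are enriched in the striatum. The Rarb promoter is printed because it is the textbook case of a gene controlled by its own product through a pair of half-sites in direct repeat 5 bases apart. The spelling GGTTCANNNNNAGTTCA, added after the sequence had been read, was found once in it on the plus strand of the gene (capitals), and in 2 of 32851 promoters of the RefSeq table (0.00609%). The spellings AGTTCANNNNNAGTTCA, AGTTCANNNNNAGGTCA, AGGTCANNNNNAGTTCA and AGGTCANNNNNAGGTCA, searched on both strands, were found in 0 of 14 promoters of the 10 genes and in 0.0396% of all. This is a description of the letters, and binding was not measured.
Rarb promoter (RefSeq, GRCm38.p6, chr14:16575427-16575726, minus strand): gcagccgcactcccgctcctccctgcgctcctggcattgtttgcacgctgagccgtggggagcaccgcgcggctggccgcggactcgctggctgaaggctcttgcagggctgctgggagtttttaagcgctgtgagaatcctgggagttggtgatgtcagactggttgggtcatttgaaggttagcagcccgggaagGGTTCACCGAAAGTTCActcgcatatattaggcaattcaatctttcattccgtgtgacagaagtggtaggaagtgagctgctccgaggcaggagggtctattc

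Rarb had 3.89, 4.20, 4.10 and 4.02 in MS mice 1 to 4, against 3.81, 3.68, 3.87 and 3.53 in control mice 1 to 4 (A_55_P1962154, mm9 chr14:17263367-17263426). The lowest MS mouse lay just above the highest control mouse. The difference was 0.33 ± 0.10 (SE, adjusted p = 0.22), and 0.26 ± 0.10 without control mouse 4. A probe on the RAR-beta 1 isoform (A_55_P2099585, chr14:17651424-17651483) had -1.60, -1.70, -1.68 and -1.72 in MS mice 1 to 4, against -1.83, -2.13, -1.84 and -2.39 in control mice 1 to 4, again without overlap, with a difference of 0.37 ± 0.13 (adjusted p = 0.26), while normexp gave 0.21 with overlap. The third probe, A_55_P2084807, gave 0.29 ± 0.13 with overlap (adjusted p = 0.38), and 0.16 ± 0.09 without control mouse 4. Relative to the first probe in the same mouse, the isoform probe and the third differed between groups by 0.04 and -0.04 (exact permutation p = 0.743 for both, adjusted p = 0.810).

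Rxrg had 4.88, 4.98, 5.47 and 5.32 in MS mice 1 to 4, against 4.80, 4.95, 4.80 and 4.37 in control mice 1 to 4 (A_51_P513311, chr1:169569624-169569683). MS mice 3 and 4 stood above the rest, while MS mouse 1 lay below control mouse 2. The difference was 0.43 ± 0.17 (adjusted p = 0.30), and 0.31 ± 0.15 without control mouse 4, while with all 8 mice it was 0.05 in the first row of the slide and 0.81 in the second. The other probe (A_55_P2044359) gave 0.31 ± 0.14 (adjusted p = 0.36), and 0.19 ± 0.10 without control mouse 4. Rarb relative to Rxrg in the same mouse differed between groups by -0.10 (exact permutation p = 0.543, adjusted p = 0.543 over 3 pairs).

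Other genes of the retinoid pathway did not share a direction. Of 20 listed genes 17 were tested, with 10 positive and 7 negative differences, a median of 0.05, and no adjusted p under 0.05 in either direction (4 higher and 2 lower at an unadjusted p under 0.05). Cyp26b1, which degrades retinoic acid, averaged -2.02 in MS mice and -0.75 in control mice without overlap, a difference of -1.27 (adjusted p = 0.13). Stra6, a retinol transporter, and Rdh10, which oxidises retinol, differed by 0.72 (adjusted p = 0.27) and 0.33 (adjusted p = 0.28), with overlap. Of the other receptors, Rara differed by -0.20, Rarg by 0.11, Rxra by -0.08 and Rxrb by 0.05, of which Rara was the second gene lower at an unadjusted p under 0.05.

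Meis1 and Meis2 are homeodomain proteins of the same family that act with Pbx partners, and Meis2 marks striatal progenitors and mature medium spiny neurons. Their differences had opposite signs, except with arrays scaled on the signalling genes, where both were negative (-0.15 for Meis2 and -0.68 for Meis1). Meis2 had 4.69, 4.84, 4.76 and 4.67 in MS mice 1 to 4, against 4.53, 4.500, 4.57 and 4.24 in control mice 1 to 4 (A_55_P2047155, chr2:115689641-115689700). All MS mice lay above all control mice, with a difference of 0.28 ± 0.09 (adjusted p = 0.23), and 0.21 ± 0.07 without control mouse 4. Meis1 had 1.03, 1.08, 1.13 and 1.20 in MS mice 1 to 4, against 1.27, 1.68, 1.28 and 1.19 in control mice 1 to 4 (A_55_P1995572, chr11:18780695-18780754). Only control mouse 4 lay within the range of the MS mice, and the difference was -0.25 ± 0.11 (adjusted p = 0.37). It was -0.30 ± 0.12 without that mouse, and the groups then did not overlap (adjusted p = 0.41), but -0.14 ± 0.08 without control mouse 2, the highest of the 8 (adjusted p = 0.47). The log2 ratio of Meis2 to Meis1 was 3.47 to 3.76 in MS mice and 2.82 to 3.29 in control mice, higher in MS mice by 0.53 (exact permutation p = 0.0286, the smallest possible, adjusted p = 0.0857 over 3 pairs). Without control mouse 4 it was higher by 0.51, and this ratio does not depend on the scaling of the arrays.

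Bcl11b is a zinc finger protein needed for medium spiny neurons to mature. Its probe of highest level lies in the coding sequence (A_51_P171772, chr12:109153847-109153906, minus strand) and is shown because it covers a zinc finger, with the codons for cysteine and for the first histidine of the finger in capitals.
Bcl11b A_51_P171772: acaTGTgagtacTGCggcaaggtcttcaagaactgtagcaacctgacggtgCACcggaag

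Bcl11b had 4.24, 4.24, 4.19 and 4.38 in MS mice 1 to 4, against 4.09, 4.03, 4.24 and 3.58 in control mice 1 to 4. Control mouse 4 stood well below all others, and control mouse 3 lay among the MS mice. The difference of 0.28 ± 0.14 (adjusted p = 0.41) became 0.14 ± 0.08 without control mouse 4. Within the 4 columns of the slide it was 0.10, -0.00059, 0.36 and 0.65, the last being the column of control mouse 4. The second probe (A_52_P925277) gave 0.23 ± 0.11 (adjusted p = 0.38), and 0.17 ± 0.11 without that mouse.

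For the factors tied to 1 of the 2 output pathways (Sp9, Ebf1 and Ikzf1), no probe had an unadjusted p under 0.05 on the scale of the 75th percentile. Sp9, needed by indirect pathway neurons (A_55_P2121794, chr2:73113161-73113220), had -2.02, -1.998, -1.88 and -2.37 in MS mice 1 to 4, against -2.02, -2.28, -2.03 and -2.31 in control mice 1 to 4, a difference of 0.09 ± 0.12 (95% interval -0.19 to 0.38, adjusted p = 0.79). Ebf1, needed by direct pathway neurons (A_55_P2065513, chr11:44818438-44818497), had 0.11, 0.07, 0.08 and 0.39 in MS mice 1 to 4, against -0.15, 0.11, 0.40 and -0.18 in control mice 1 to 4, a difference of 0.12 ± 0.14 (95% interval -0.20 to 0.44, adjusted p = 0.77). In both genes the groups overlapped over most of their range, and with single mice left out the difference ran from 0.03 (without MS mouse 3) to 0.19 (without MS mouse 4) for Sp9 and from 0.04 (without MS mouse 4, and likewise without control mouse 4) to 0.23 (without control mouse 3) for Ebf1.

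Ikzf1 (Ikaros), which takes part in the development of enkephalin neurons and is also a regulator of blood and immune cells, had 2 tested probes with opposite signs. A_55_P2023607 (chr11:11661344-11661403, plus strand) had -4.05, -4.00, -3.73 and -3.80 in MS mice 1 to 4, against -3.42, -3.99, -3.54 and -3.81 in control mice 1 to 4, a difference of -0.20 ± 0.14 (adjusted p = 0.55). With single mice left out the difference ran from -0.31 (without control mouse 2) to -0.11 (without control mouse 1). A_66_P124139 (chr11:11672828-11672887, plus strand) had -3.84, -4.14, -3.99 and -3.63 in MS mice 1 to 4, against -4.44, -4.39, -3.84 and -4.18 in control mice 1 to 4, a difference of 0.32 ± 0.16 (adjusted p = 0.41). With single mice left out it ran from 0.23 (without MS mouse 4) to 0.44 (without control mouse 3). The log2 ratio of the second to the first was higher in every MS mouse than in every control mouse, by 0.52 (exact permutation p = 0.0286, adjusted p = 0.171 over 12 pairs). Their first 30 bases are printed because this pair differed most among the probes of 1 gene.
Ikzf1 A_55_P2023607: cagaaatttcttggtaagagttaaatgttt
Ikzf1 A_66_P124139: aggaagctcatgtgcatctggtgctatggc

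The third Ikzf1 probe (A_55_P2023612, chr11:11669493-11669552) was not well above background in any mouse, while both tested probes were well above it in all 8. Normexp background correction brought the difference of A_66_P124139 to 0.03 and that of A_55_P2023607 to -0.12. Quantile normalization gave 0.42 for A_66_P124139 and -0.12 for A_55_P2023607. Of 12 microglia genes, which share the immune lineage of Ikzf1, 11 had negative differences, with a median of -0.16 and summed linear levels of 121 to 130 in MS mice and 122 to 146 in control mice, while Ctss, a lysosomal protease, and P2ry12, a purine receptor, differed by -0.31 and -0.26 (adjusted p = 0.25 and 0.38). Their part in the Ikzf1 values was not tested.

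Relative to the 75th percentile of its array, control mouse 4 was the lowest of all 8 mice for 6 of the 10 genes. These were Foxp1, Rarb, Rxrg, Meis2, Bcl11b and Ebf1. The mouse lay below the gene mean for all 10, with a median deviation of -0.32. Its 75th percentile, 431, was the highest of the 8 arrays. Before division by that percentile it was the lowest mouse only for Foxp1 and Bcl11b among those 6 genes. For Rarb its linear signal was 4964, against 4067 in control mouse 2. Among MS mice the median deviation ran from -0.01 in mouse 1 to 0.19 in mouse 3, and among the other control mice from -0.10 to 0.07. Control mouse 3 was above the gene mean for 6 of the 10 genes, as many as MS mice 2 and 4. When control mouse 4 was left out, 19 of the 22 probes and 7 of the 10 genes still had a positive difference, against 50.2% of all probes. Of the 22 probes 7 had an unadjusted p under 0.05 with the higher signal in MS mice, against 5.37%. In that fit Meis1 had an unadjusted p under 0.05 in the other direction. MS mouse 3, 1 of the 3 mice with cortical Slc17a7, had the highest Foxp2 and Rxrg signals, and control mouse 2, another of them, had the highest Meis1 signal. Without these 3 mice the median difference over the 10 genes was 0.19 and 19 of the 22 probes had a positive difference, against 50.8% of all probes. In that fit Rxrg differed by 0.27 ± 0.16, Foxp2 A_66_P130601 by -0.21 ± 0.17 Meis1 by -0.19 ± 0.09, Ebf1 by 0.06 ± 0.20 and Ikzf1 A_55_P2023607 by -0.44 ± 0.14, with 2 MS and 3 control mice left. This comparison was chosen after the data had been seen.

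**Figure D3:**
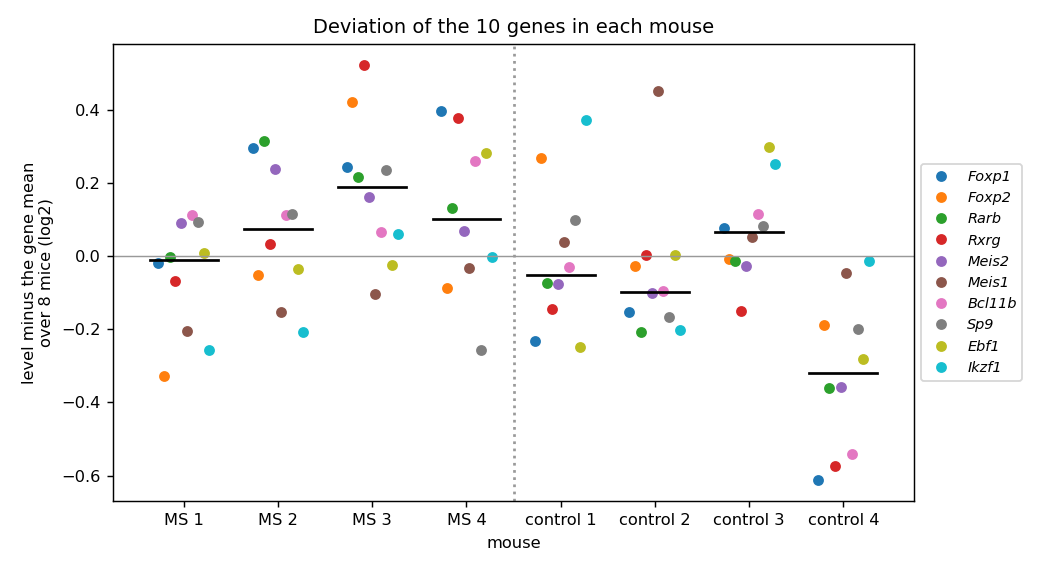
Level of each of the 10 genes minus the mean of that gene over all 8 mice (log2), 1 column per mouse with MS mice on the left, and bars at the median over the 10 genes. Control mouse 4 has all 10 genes below 0, with a median of -0.32, while MS mouse 3 has the highest median, 0.19.

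The signalling genes of the same neurons had higher signals in MS mice as well. All 20 had positive differences, with a median of 0.34, and none passed the adjusted threshold (9 were higher at an unadjusted p under 0.05, and 0 lower). Without control mouse 4 the median was 0.22, with all 20 still positive. Gng7, a G protein subunit, was higher in every MS mouse than in every control mouse, by 0.33 (adjusted p = 0.24). Adora2a, the adenosine receptor of indirect pathway neurons, differed by 0.58 (adjusted p = 0.26), and Gpr52, an orphan receptor of the same neurons, by 0.43 (adjusted p = 0.25), both with overlap. Drd1, Drd2 and Ppp1r1b differed by 0.35, 0.28 and 0.25 (adjusted p = 0.37, 0.50 and 0.53). The 6 direct pathway genes, with Pdyn (prodynorphin) at 0.27 (adjusted p = 0.29), had a median difference of 0.25 and the 6 indirect pathway genes, Sp9 among them, 0.31. Without control mouse 4 these medians were 0.19 for the direct pathway and 0.17 for the indirect pathway, so that their order turned.

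Markers of neighbouring tissue and of glia mostly had the opposite sign. Of 9 pallidal and basal forebrain genes, 8 were lower in every MS mouse than in every control mouse, the exception being Lhx6, with a median over the 9 of -1.24 and summed levels of 27.4 to 29.2 in MS mice and 32.3 to 38.1 in control mice. Lhx8, a factor of cholinergic neurons, differed by -0.92, Npas1, a factor of pallidal neurons, by -2.26 (adjusted p = 0.071 for both), and Vamp1, a vesicle protein, by -1.24 (adjusted p = 0.091). The difference was negative for 8 of 8 oligodendrocyte genes (median -0.17, summed levels 165 to 225 in MS mice and 179 to 241 in control mice) and for 6 of 9 astrocyte genes (median -0.16, 57.3 to 64.9 in MS mice and 63.5 to 71.8 in control mice). Among them Agt (angiotensinogen) differed by -1.999 (adjusted p = 0.063), Gfap by -0.66 (adjusted p = 0.25), Olig2 by -0.43 (adjusted p = 0.23) and Mag by -0.25 (adjusted p = 0.39). Without control mouse 4 the pallidal median was -1.16, the astrocyte median -0.09 and the oligodendrocyte median -0.10, with 7 of 8 oligodendrocyte genes negative. Of 9 hypothalamic genes 6 were tested, with a median of -0.53. Lhx5, detected over background in 0 of 4 MS mice and 4 of 4 control mice, was lower with an adjusted p of 0.0074, the single probe among all 33111 to pass, and Hcrt differed by -0.73 (adjusted p = 0.15). The part of the makeup of the punch in the differences of the 10 factors was not tested.

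**Figure D4:**
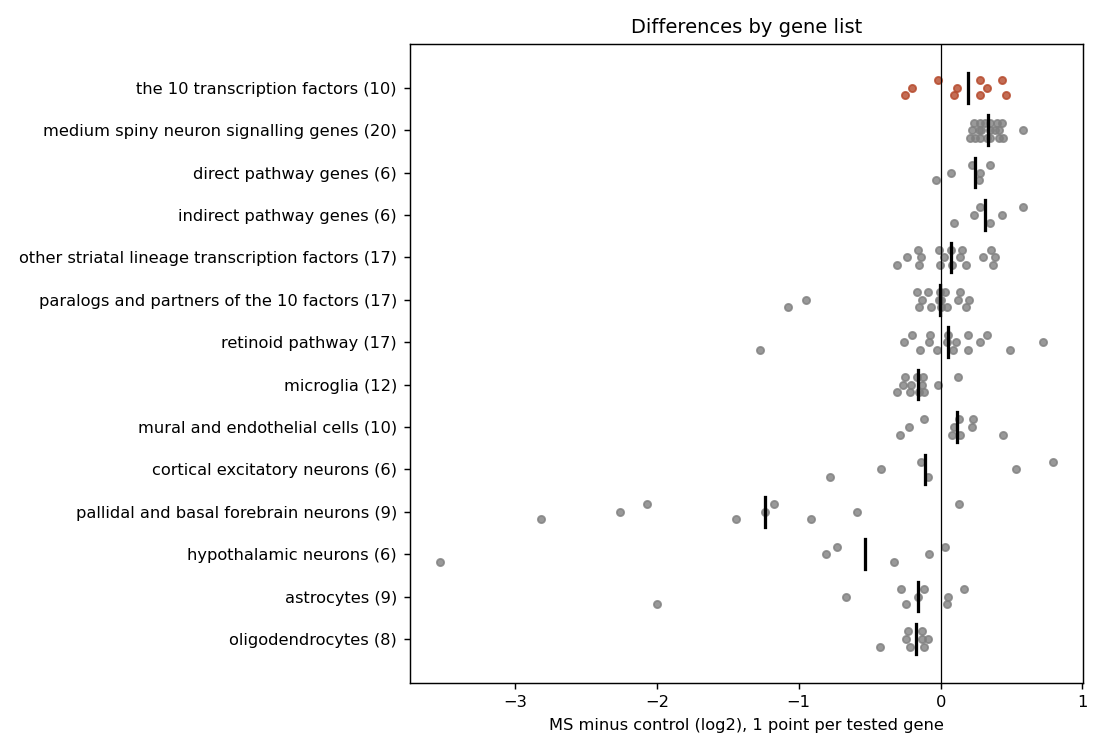
Difference between MS and control mice (log2) for the 10 transcription factors (red) and for each gene list with arrays scaled on their 75th percentile, 1 point per tested gene with the number tested in brackets, and bars at the median. The factors have a median of 0.20 and the signalling genes 0.34, while the pallidal and basal forebrain genes have a median of -1.24.

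Scaling on those signalling genes lowered every difference by 0.43 by construction, so that only differences larger than this shift stayed positive. Which signs turned follows from the differences already given and is not a further test. The median level of the 20 signalling genes was 5.81, 6.02, 6.23 and 6.24 in MS mice 1 to 4, against 5.71, 5.75, 6.05 and 5.07 in control mice 1 to 4, a difference of 0.43 (exact permutation p = 0.0857). When each array was scaled on this median in place of its 75th percentile, the median of all probes shifted by -0.43, and 3 of the 22 probes had a positive difference, against 2.06% of all probes. The coding end of Foxp1 then differed by 0.03 ± 0.29 (SE), Rxrg by -0.0012 ± 0.29, Rarb by -0.11 ± 0.29 and Meis2 by -0.15 ± 0.29. Only Meis1 (-0.68 ± 0.29, adjusted p = 0.17) and Ikzf1 A_55_P2023607 (-0.64 ± 0.29, adjusted p = 0.20) had an unadjusted p under 0.05, 2 of 22 probes against 21.2% of all probes. Both were lower in every MS mouse than in every control mouse. The SE on this scale was 0.29 for all 22 probes, against 0.09 to 0.24 on the scale of the 75th percentile. These errors and p-values therefore do not reflect the spread of each gene by itself. On this scale the groups did not overlap for 2 of the 22 probes, against 8.46% of all probes. Without control mouse 4, Foxp1 differed by 0.09 ± 0.18, Meis1 by -0.55 ± 0.20 and Ikzf1 by -0.49 ± 0.20 on this scale. This scaling was chosen after the data had been seen.

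**Figure D5:**
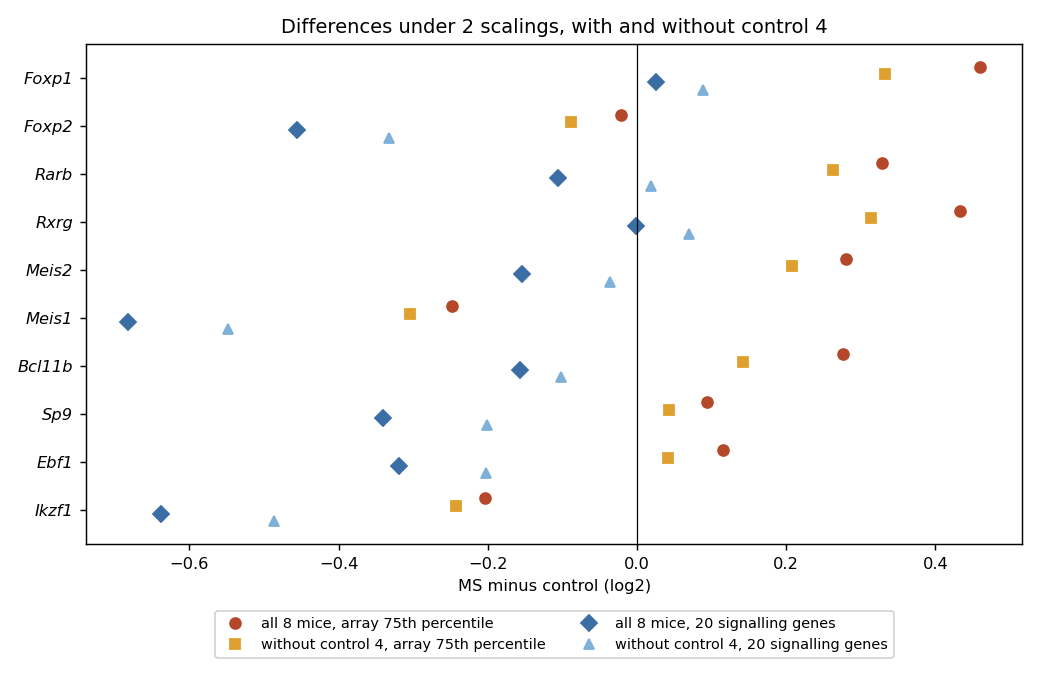
Difference between MS and control mice (log2) for the probe of highest mean level of each of the 10 genes, with arrays scaled on their 75th percentile or on the median of 20 signalling genes of medium spiny neurons, each with all 8 mice and without control mouse 4. On the second scale Foxp1 and Rxrg lie at 0.03 and -0.0012 with all mice, and Meis1 and Ikzf1 at -0.68 and -0.64.

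Among other transcription factors the median difference was close to 0. Of 18 further factors of the striatal lineage 17 were tested, with 10 positive and 7 negative differences and a median of 0.07 (2 higher and 1 lower at an unadjusted p under 0.05, none after adjustment). Foxo1, a forkhead factor of the insulin pathway, differed by 0.35 (adjusted p = 0.23) and Tshz1, a zinc finger factor, by 0.30 (adjusted p = 0.35), while Zfp521, a zinc finger factor of early neural cells, was lower in every MS mouse than in every control mouse, with a difference of -0.16 (adjusted p = 0.34). Among 17 tested paralogs and partners of the 10 genes the median was -0.0045, with 0 higher and 2 lower at an unadjusted p under 0.05. These were Ebf4 (-0.95, adjusted p = 0.091) and Ebf3 (-1.08, adjusted p = 0.15), relatives of Ebf1, and both were lower in every MS mouse than in every control mouse. Foxp4 differed by -0.17 (adjusted p = 0.36), Bcl11a by -0.01, Meis3 by 0.0018 and Pbx3 by 0.20, with overlap.

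Binding motifs of the factors in the promoters of the 10 genes were described from sequence alone. RefSeq entries matched 9 of the 10 genes (all but Foxp2) with 14 windows of 300 bases, from 250 before the start site to 50 after it, searched on both strands. The forkhead core TGTTTAC was found in 0 of the 14 windows and in 3.65% of all windows. The Meis core TGACAG was found in 2 (in Foxp1 and Rarb), against 19.2%, the GC box GGGCGG in 4 (2 of Foxp1, 1 of Ikzf1 and 1 of Sp9), against 35.7%, and the Ikaros core TGGGAA in 4 (Ebf1, Foxp1, Meis1 and Rxrg), against 25.6%. No match overlapped one of another motif, and a match is a description of the letters and not a site.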

How the data were processed

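RNA from NAc punches of 8 mice (4 MS, 4 control) was hybridised by the authors as Cy3-labelled cRNA, from 40 ng of total RNA, on 8 Agilent 1-colour arrays of a single slide, scanned once. The deposited scanner output of the authors gives linear intensity values made with Agilent Feature Extraction 10.10.1.1, background-subtracted, with coordinates of build mm9. The array design in the headers is not the one named in the methods, and probes are those of the headers. The authors also deposited log2 values for 31261 probes, 20 of the 24 probes used here among them. Within each array these followed the log2 processed signal (correlation 0.991 to 0.994), with column medians near 8.01, so they are levels and not centred per gene. Their normalization is not given in the sources used here.

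Outlier spots (122 to 189 per array) and control spots were left out, and spots of a probe were averaged as log2 of the processed signal after division by the array's 75th percentile. Of 55681 probes, the 33111 with at least 4 arrays well above background were tested with limma 3.58.1 (lmFit, eBayes) in R 4.3.3, with Benjamini-Hochberg adjustment over all of them. The step was tested on simulated data. The probe of highest mean level stood for a gene in counts, and all probes of the 10 genes were reported. From each gene list the 2 to 4 genes with the smallest p were named, with Ppp1r1b, Drd1 and Drd2, further genes were named after their values were seen, and some listed genes are not reported here. The number of arrays limits the precision. The 10 genes and the lists were chosen with earlier results of these data known. Background correction, scaling, normalization, the filter, the variance model, slide position and single mice were varied, and scaling on the signalling genes and leaving out 3 mice were added later. RefSeq tables of GRCm38.p6 gave names and promoters.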

Additional observations from a re-analysis of the deposited data

Results flagged for a closer look

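In 2 of the 44 groups of 4 mice examined (22 probes, 2 groups each) 1 mouse lay far from the other 3, and chance alone marks about 1 in 20 such groups. For Rxrg (A_55_P2044359), control mouse 4 had a level of 2.85, while the other control mice had 3.32 to 3.38. For Ebf1 (A_55_P2065513), MS mouse 4 had 0.39, while the other MS mice had 0.07 to 0.11.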

How the results depend on the processing

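The probes with an adjusted p under 0.05 numbered 0 of 22, and 1 with normexp background correction, with the deposited log2 values and with a variance trend and robust moderation, each time Foxp1 A_55_P2105436. Under the other alternatives the number was 0. Over all probes limma called 1 probe, against 490 with normexp, 96 with median scaling, 113 among probes above background on all 8 arrays, 375 with the deposited values, 504 with the trend, 37 without control mouse 3, 0 without MS mouse 1, 2 or 4 or control mouse 2, 1455 with scaling on the signalling genes (154 without control mouse 4), and 0 without the filter or with the slide column as a block. Leaving out each mouse in turn gave 8 to 12 probes with an unadjusted p under 0.05, against 11 to 13.8% of all probes (9 with all mice, against 14.1%), and median differences over the 10 genes of 0.09 (without control mouse 4) to 0.28 (without control mouse 3). Foxp2 A_66_P130601 changed sign with median scaling (0.026) and ranged from -0.17 (without MS mouse 3) to 0.084 (without MS mouse 1) with single mice left out, and Foxp2 A_55_P2113399 changed sign with normexp (-0.0048). Without the 3 mice with cortical Slc17a7, an alternative added after seeing the data, 3 probes had an unadjusted p under 0.05, against 11% of all probes, with 3 fewer mice. The causes were not tested.

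Scaling on the signalling genes of medium spiny neurons brought the median difference over the 10 genes to -0.24 (-0.15 without control mouse 4). The probes with an unadjusted p under 0.05 numbered 2, against 21.2% of all probes (2 without that mouse, against 11.6%). With all mice this scaling lowers every difference by 0.43 by construction. Without control mouse 4 the shift is smaller, and the median of all probes was then -0.24. With all mice the sign turned for Foxp1 A_55_P2105452 (-0.059), for 4 probes of Foxp2 (-0.28, -0.14, -0.18 and -0.16), for Rarb (-0.11, -0.14 and -0.063), Rxrg (-0.0012 and -0.12), Meis2 (-0.15), Bcl11b (-0.16 and -0.20), Sp9 (-0.34), Ebf1 (-0.32) and Ikzf1 A_66_P124139 (-0.12). Without control mouse 4 it turned for 3 probes of Foxp2 (-0.019, -0.011 and -0.0054), for Rarb A_55_P2084807 (-0.081), Rxrg A_55_P2044359 (-0.054), Meis2 (-0.036), Bcl11b (-0.10 and -0.076), Sp9 (-0.20) and Ebf1 (-0.20).

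No paired analysis was possible because replicate numbers follow the order of the samples and pair no mice. Signal over background limits the dimmer probes, such as Ikzf1 A_66_P124139 (0.32, and 0.03 with normexp).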

Other observations

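Of 10 mural and endothelial genes, 7 had positive and 3 negative differences, with a median of 0.11. Rgs5, a pericyte gene, was higher in every MS mouse than in every control mouse, by 0.23 (limma adjusted p = 0.17), while Cspg4, shared by pericytes and oligodendrocyte precursors, was lower in every MS mouse, with a difference of -0.29 (adjusted p = 0.26). Of 9 cortical excitatory genes 6 were tested, with a median of -0.11, and Fezf2 differed by 0.53 (adjusted p = 0.32) and Cux2 by -0.14 (adjusted p = 0.56). Neurod2, a cortical factor, was -1.17 in MS mouse 3, -1.54 in MS mouse 4 and -0.86 in control mouse 2, against -4.68 to -3.25 in the other 5 mice. Tbr1, of the same list, was 0.86 in MS mouse 3, 0.54 in MS mouse 4 and 0.61 in control mouse 2. In the other 5 mice Tbr1 was -3.51 and -2.88 in MS mice 1 and 2, against -1.27, -1.19 and -0.02 in control mice 1, 3 and 4.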
